A study of Homo sapiens with 4 samples.

Results

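The fibroblast growth factor (FGF) genes described here are 7 members of 1 signalling pathway, each read by 1 probe among the 47289 on the array. They comprise the ligands FGF2 and FGF19, the kinase receptors FGFR3 and FGFR4, the receptor-like FGFRL1, and the feedback inhibitors SPRY1 and SPRY4. The probes were chosen by their identifiers, which are GI_41352694-S for FGF2, GI_15011922-S for FGF19, GI_13112047-A for FGFR3, GI_13112049-A for FGFR4, GI_13112053-S for FGFRL1, GI_40788000-I for SPRY1 and GI_23308573-S for SPRY4. In Illumina's naming a probe ending in S reads a gene with 1 listed transcript, one ending in A reads all transcripts of its gene, and one ending in I reads a particular isoform. The SPRY1 value is therefore that of an isoform probe.

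All samples were NCCIT cells, a human embryonic carcinoma (hEC) line grown in medium with 10% fetal calf serum, and by the labels every group was seeded at 70000 cells per square centimetre and harvested at day 2.5 (the study's methods give a lower seeding density and an earlier harvest). The mock group received the lipofection reagent Hyperfect, and the 3 knock-down groups received it with esiRNA, a pool of short interfering RNAs cut from a longer double-stranded RNA, against OCT4, NANOG or SOX2. Each group had 3 arrays, which the labels call biological replicates. No array of cells given an irrelevant esiRNA was analysed here, so a response to esiRNA as such and a response to the loss of the targeted factor cannot be told apart in the comparisons with mock.

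FGF ligands bind receptor tyrosine kinases at the cell surface together with heparan sulphate proteoglycans, and the activated receptors signal through the RAS and MAPK cascade to ETS family transcription factors. FGF2 is the ligand most used to keep human pluripotent cells undifferentiated in culture, and FGF19 is a hormone-like ligand with a preference for FGFR4. FGFRL1 binds ligand but has no kinase domain. Sprouty proteins are induced by FGF signalling and dampen the MAPK cascade in turn.

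The 12 arrays detected between 11196 and 12858 probes, a probe being detected where its signal exceeded at least 99% of the negative controls (detection value of 0.99 or more), and arrays of the same group correlated at 0.992 to 0.997. Mean deposited signals ran from 263 to 280 on the mock arrays and from 362 to 414 on the OCT4 arrays, with the NANOG arrays (285 to 321) and the SOX2 arrays (289 to 331) between them. Levels below are therefore given as log2 normalised signal, after background correction and quantile normalisation, and differences are differences between group means on that scale with the moderated test of limma and Benjamini-Hochberg adjusted p-values over 12374 probes. The targeted gene was checked first. POU5F1, which encodes OCT4, averaged 9.25 in mock and 5.05 in the OCT4 knock-down, a log2 difference of -4.21 (1 of 3 arrays still detected, adjusted p = 7.73e-11). NANOG fell by 1.85 in its own knock-down (adjusted p = 1.28e-07) and was detected on 0 of 3 arrays of both the OCT4 and the SOX2 knock-down. The SOX2 transcript was not analysed here.

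The start regions of 6 of the 7 genes were found among the RefSeq promoter windows (GRCh38.p14), which hold 250 bases before and 50 bases after a transcription start. OCT4 and SOX2 are known to bind next to each other on a composite element, and the stretch of the NANOG promoter that carries it is shown because it is the reference for the search, with the element in capitals (read on the opposite strand, CATTGT, then 1 free base, then the octamer without its last base). The receptor promoters follow because the 3 receptors moved in different directions in the arrays, and capitals there mark the GC box GGGCGG or its complement CCGCCC, a motif of SP family factors.
NANOG chr12:7789274-7789303 (+ strand): cagctactTTTGCATTACAATGgccttggt
FGFR3 chr4:1793043-1793292 (+ strand): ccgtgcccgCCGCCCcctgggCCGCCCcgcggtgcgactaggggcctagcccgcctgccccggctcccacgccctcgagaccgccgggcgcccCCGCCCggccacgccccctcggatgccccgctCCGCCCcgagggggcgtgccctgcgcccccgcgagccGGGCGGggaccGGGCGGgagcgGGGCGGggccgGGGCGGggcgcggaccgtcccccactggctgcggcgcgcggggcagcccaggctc
FGFR4 chr5:177086665-177086914 (+ strand): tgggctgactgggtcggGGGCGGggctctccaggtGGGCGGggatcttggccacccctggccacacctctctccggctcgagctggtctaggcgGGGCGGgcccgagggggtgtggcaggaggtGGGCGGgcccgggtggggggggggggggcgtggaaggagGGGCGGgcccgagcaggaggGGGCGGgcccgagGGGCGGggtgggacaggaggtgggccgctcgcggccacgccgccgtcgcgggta
FGFRL1 chr4:1012214-1012463 (+ strand): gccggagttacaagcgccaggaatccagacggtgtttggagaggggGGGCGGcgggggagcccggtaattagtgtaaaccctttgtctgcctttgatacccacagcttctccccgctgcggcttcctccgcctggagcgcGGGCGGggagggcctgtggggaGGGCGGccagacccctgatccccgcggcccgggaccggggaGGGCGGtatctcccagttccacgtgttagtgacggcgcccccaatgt
The composite element was in 0 of the 8 windows of the FGF and Sprouty genes and in 3 of 35116 windows in all (0.00854%). Neither the octamer ATGCAAAT, present in 1.77% of all windows, nor the SOX motif CATTGT, present in 10.8%, occurred in any of the 8, both strands being searched and the composite overlapping both motifs in part. The GC box was in 6 of the 8 windows, among them at least 1 window of each of the 6 genes, against 45% of all windows. FGFR3 held 8 copies, FGFR4 held 7 and FGFRL1 held 4 in the stretches shown, and the FGFR3 window was 86.3% G and C where the median window was 58.7%. FGFR4 had another window, not shown, with 0 copies and 57.3% G and C.

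FGF19 showed the largest differences from mock of the 7 genes in the OCT4 and SOX2 knock-downs. Its log2 signal was 7.83, 7.95 and 7.68 on the mock arrays and 5.55, 5.03 and 5.24 on the OCT4 arrays. The NANOG arrays read 7.33, 7.30 and 7.21, and the SOX2 arrays 4.56, 4.73 and 4.73. No array of any knock-down reached the lowest mock array, and the probe was detected on all 3 mock and NANOG arrays, on 2 of 3 OCT4 arrays and on 0 of 3 SOX2 arrays. FGF19 fell by 2.54 in the OCT4 knock-down (SE 0.119, adjusted p = 3.35e-09), which is a 5.83-fold decrease. The size depended on the background correction, since with normexp at an offset of 50 the difference was -1.59, and with the authors' group means it was -3.15. In the SOX2 knock-down it was at least 5.64-fold lower than in mock (adjusted p = 4.33e-10), a bound because the SOX2 signals were not above background; the measured means were 4.67 and 7.82. In the NANOG knock-down it fell by 0.54 (SE 0.119, adjusted p = 0.00514), a call that was lost with the arrays scaled to the median of all probes (-0.31, adjusted p = 0.142). The OCT4 knock-down differed from the NANOG knock-down by -2.01 (95% interval -2.27 to -1.75, adjusted p = 3.85e-08). OCT4 and SOX2 arrays did not overlap for FGF19, yet their difference of 0.60 missed the threshold (adjusted p = 0.082).

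FGF2 was dim on every array. The mock arrays read 5.66, 5.93 and 6.25, the OCT4 arrays 4.99, 4.81 and 4.81, the NANOG arrays 5.54, 5.0 and 5.67, and the SOX2 arrays 4.59, 4.69 and 4.48. All 3 mock arrays and 2 of 3 NANOG arrays were above the detection threshold, and 0 of 3 were in either of the OCT4 and SOX2 knock-downs. FGF2 was at least 1.69-fold lower in the OCT4 knock-down (measured means 4.87 and 5.95, adjusted p = 1.89e-04) and at least 1.54-fold lower in the SOX2 knock-down (measured means 4.59 and 5.95, adjusted p = 2.72e-05). The probe entered the test only through its 3 mock arrays; with all 47289 probes tested the adjusted p-values were 5.72e-04 and 7.97e-05, and at an offset of 50 the measured differences were -0.51 and -0.70. In the NANOG knock-down the difference was -0.54 (adjusted p = 0.0313), the groups overlapped, and with all probes tested the adjusted p was 0.091. That last call was also lost without mock replicate 2 (-0.56, adjusted p = 0.0652), without mock replicate 3 (-0.40, adjusted p = 0.123) and without NANOG replicate 2 (-0.34, adjusted p = 0.123).

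**Figure D1:**
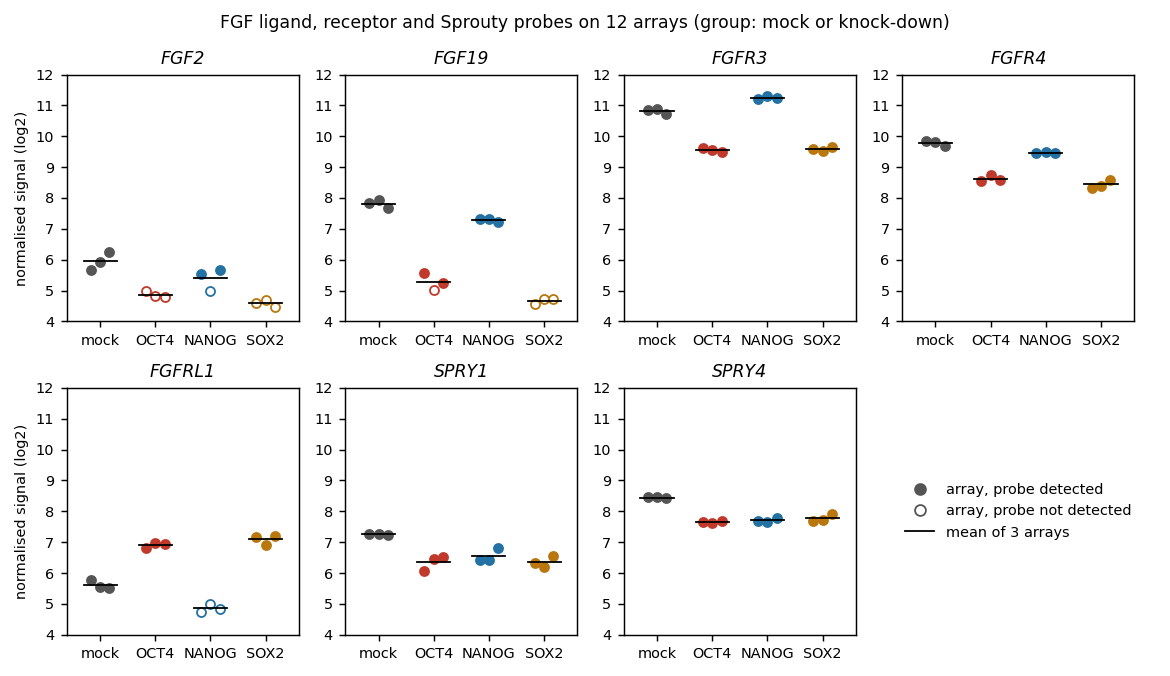
Log2 normalised signal of the 7 probes on each of the 12 arrays, by group (x axis), with filled points where the probe was detected, open points where it was not, and a bar at the mean of 3 arrays. FGF19 sits between 7.68 and 7.95 in mock and below 5.6 in the OCT4 and SOX2 knock-downs, FGFR3 is highest in the NANOG knock-down, and FGFRL1 is high in the OCT4 and SOX2 knock-downs and undetected in the NANOG knock-down.

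Both kinase receptors fell in the OCT4 and SOX2 knock-downs, and they parted in the NANOG knock-down. FGFR3 read 10.85, 10.87 and 10.72 in mock, 9.62, 9.55 and 9.50 in the OCT4 knock-down, 11.22, 11.29 and 11.23 in the NANOG knock-down, and 9.58, 9.54 and 9.66 in the SOX2 knock-down. All 3 NANOG arrays were above all mock arrays, and all OCT4 and SOX2 arrays were below them. The differences from mock were -1.25 with OCT4 esiRNA (SE 0.0686, adjusted p = 1.43e-08) and -1.22 with SOX2 esiRNA (adjusted p = 1.83e-08), or 2.38-fold and 2.32-fold decreases. With NANOG esiRNA FGFR3 rose by 0.43 (95% interval 0.28 to 0.58, adjusted p = 6.03e-04), a 1.35-fold increase. Before any scaling the deposited signals were also highest in the NANOG knock-down, then in mock and lower in the other knock-downs, with means of 1565 ± 168 in mock, 1078 ± 138 in the OCT4 knock-down, 2358 ± 195 in the NANOG knock-down and 836.8 ± 59.1 in the SOX2 knock-down (SD, n = 3 each). The OCT4 and SOX2 arrays overlapped and differed by -0.03 (95% interval -0.18 to 0.11).

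FGFR4 read 9.83, 9.81 and 9.70 in mock, 8.56, 8.73 and 8.58 in the OCT4 knock-down, 9.45, 9.50 and 9.46 in the NANOG knock-down, and 8.34, 8.40 and 8.57 in the SOX2 knock-down. Every knock-down array was below every mock array. FGFR4 fell by 1.16 in the OCT4 knock-down (SE 0.0791, adjusted p = 1.17e-07) and by 1.34 in the SOX2 knock-down (adjusted p = 2.72e-08), that is 2.23-fold and 2.54-fold. The decrease in the NANOG knock-down was 1.24-fold (log2 difference -0.31, adjusted p = 0.0111), and with the arrays scaled to the median of all probes in place of quantile normalisation it was -0.12 (adjusted p = 0.406). OCT4 and NANOG knock-downs differed by -0.84 (95% interval -1.02 to -0.67, adjusted p = 2.54e-06), and SOX2 and NANOG knock-downs by -1.03 (adjusted p = 3.83e-07). Of the pair, FGFR3 alone rose in the NANOG knock-down.

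FGFRL1, the receptor without a kinase, moved opposite to FGFR3 in all 3 knock-downs. Its mock arrays read 5.78, 5.53 and 5.51, all detected. The OCT4 arrays read 6.80, 6.97 and 6.94, the SOX2 arrays 7.18, 6.90 and 7.21, and the NANOG arrays 4.75, 5.0 and 4.84. No 2 of these groups overlapped except the OCT4 and SOX2 knock-downs, and the probe was detected on 0 of 3 NANOG arrays. FGFRL1 rose by 1.30 in the OCT4 knock-down (SE 0.107, adjusted p = 6.72e-07) and by 1.49 in the SOX2 knock-down (adjusted p = 1.78e-07), or 2.46-fold and 2.81-fold, and by 0.75 and 0.89 with normexp at an offset of 50. It was at least 1.20-fold lower in the NANOG knock-down than in mock (measured means 4.87 and 5.61, adjusted p = 3.13e-04). Against the NANOG knock-down it was at least 2.95-fold higher in the OCT4 knock-down (measured means 6.90 and 4.87, adjusted p = 1.23e-08) and at least 3.37-fold higher in the SOX2 knock-down (measured means 7.10 and 4.87, adjusted p = 5.17e-09). At an offset of 50 these measured log2 differences were smaller, 1.095 and 1.232. The rise was visible in the deposited signals, 121.6 ± 6.81 in mock against 256.8 ± 7.91 with OCT4 esiRNA and 231.3 ± 20.7 with SOX2 esiRNA, while the NANOG arrays averaged 111.5 ± 3.61.

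**Figure D2:**
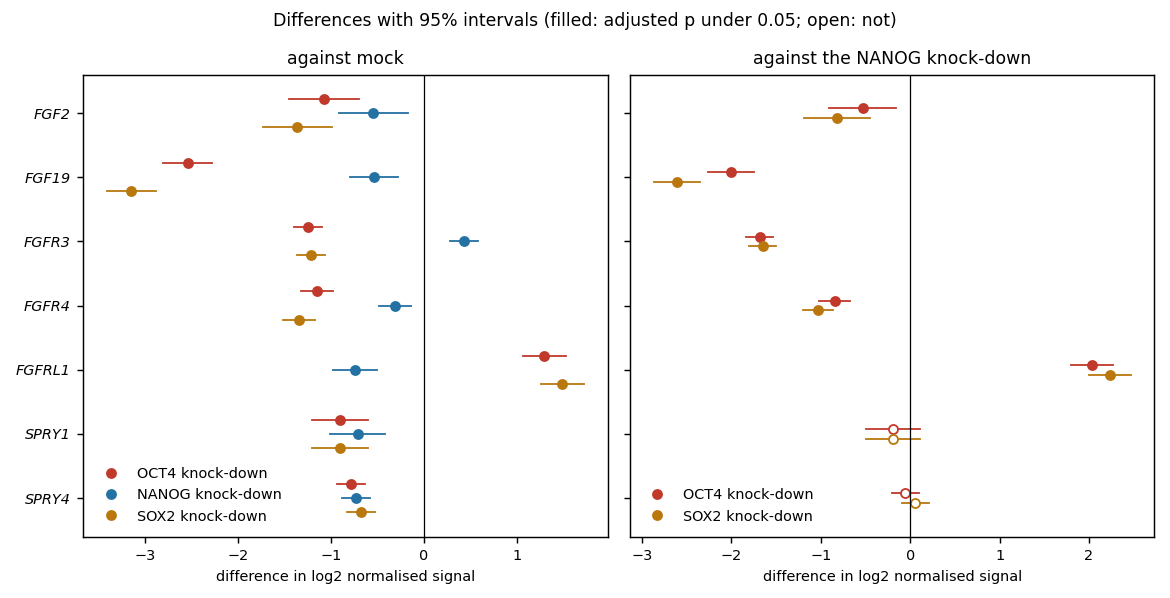
Differences in log2 normalised signal with 95% intervals for the 7 genes, against mock (left) and against the NANOG knock-down (right), filled where the adjusted p was under 0.05. FGFR3 and FGFRL1 lie on opposite sides of 0 in the NANOG knock-down and in the other knock-downs, and the SPRY1 and SPRY4 intervals cross 0 in the right panel.

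Both Sprouty genes fell in all 3 knock-downs under quantile normalisation, though in the OCT4 knock-down not with every scaling. SPRY4 read 8.46, 8.46 and 8.42 in mock, 7.66, 7.63 and 7.67 in the OCT4 knock-down, 7.70, 7.66 and 7.78 in the NANOG knock-down, and 7.68, 7.73 and 7.90 in the SOX2 knock-down. Every knock-down array was below every mock array. The differences from mock were -0.79 (SE 0.0699, adjusted p = 1.26e-06) with OCT4 esiRNA, -0.73 (adjusted p = 1.13e-05) with NANOG esiRNA and -0.68 (adjusted p = 5.02e-06) with SOX2 esiRNA, decreases of 1.73-fold, 1.66-fold and 1.60-fold. The OCT4 and NANOG knock-downs differed by -0.05 (95% interval -0.21 to 0.10), and the SOX2 and NANOG knock-downs by 0.06 (95% interval -0.09 to 0.21).

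SPRY1 read 7.27, 7.26 and 7.25 in mock, 6.08, 6.45 and 6.53 in the OCT4 knock-down, 6.41, 6.42 and 6.80 in the NANOG knock-down, and 6.32, 6.19 and 6.56 in the SOX2 knock-down. The mock arrays lay within 0.02 of each other and above all others. The differences in SPRY1 were -0.91 with OCT4 esiRNA (SE 0.137, adjusted p = 1.30e-04), -0.71 with NANOG esiRNA (adjusted p = 0.00223) and -0.90 with SOX2 esiRNA (adjusted p = 1.34e-04). Between the OCT4 and NANOG knock-downs the difference was -0.19 (95% interval -0.49 to 0.11, adjusted p = 0.262).

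The Sprouty decreases in the OCT4 knock-down depended on the scaling between arrays. The deposited SPRY4 signal averaged 350.2 ± 19.2 in mock and 366.5 ± 28.6 in the OCT4 knock-down, and the deposited SPRY1 signal 195.9 ± 6.73 and 205.4 ± 7.85. Deposited signals still hold background, and the negative-control means were 93.15 to 100.1 on the mock arrays and 110.8 to 118.8 on the OCT4 arrays. Above those controls and before scaling, SPRY4 averaged 254 in mock and 252.5 in the OCT4 knock-down, and SPRY1 99.79 and 91.46. In the NANOG knock-down the deposited means were lower than in mock, 274.4 ± 12.6 for SPRY4 and 169.2 ± 7.40 for SPRY1, and in the SOX2 knock-down they were 310.1 ± 8.90 and 175.1 ± 7.27. When each array was scaled to the median of all its probes, most of which were not detected, the OCT4 difference was -0.20 for SPRY1 (adjusted p = 0.159) and -0.09 for SPRY4 (adjusted p = 0.412). That scaling moved the median of the tested probes in the OCT4 knock-down from -0.03 to 0.57, and 93.8% of its calls were increases against 47.3% under quantile normalisation. In the NANOG and SOX2 knock-downs it moved the median to 0.19 each, with 85.6% and 78.3% of calls upward against 50.2% and 47%. Scaled to the median of the probes detected on all 12 arrays, an alternative chosen after seeing the data, the OCT4 differences were -0.88 and -0.78, and with rank-invariant scaling after the study's methods they were -0.82 and -0.69, all called.

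**Figure D3:**
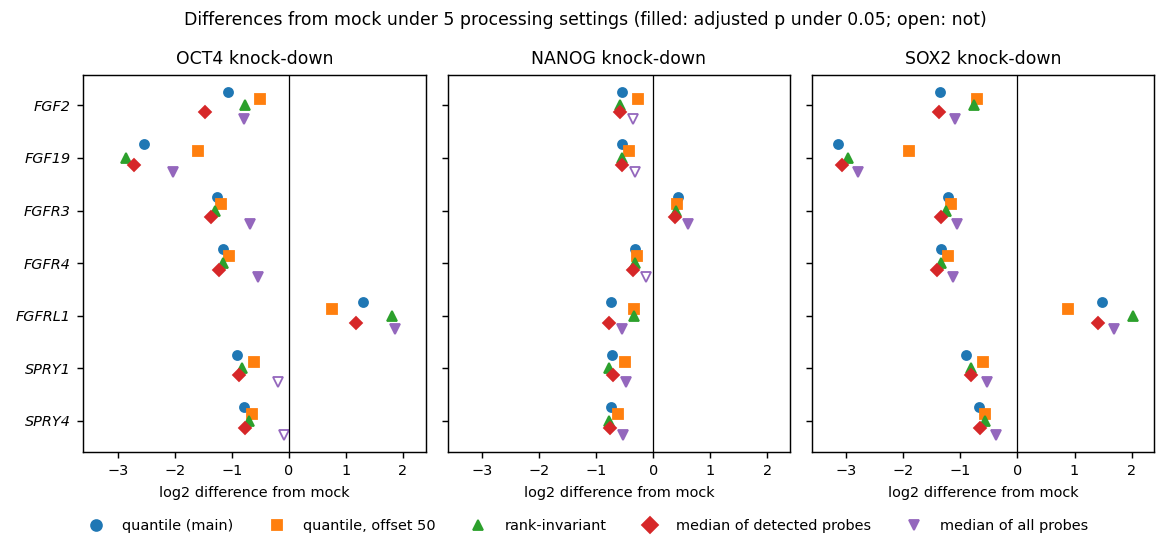
Log2 differences from mock of the 7 genes (y axis) in each knock-down (panels) under 5 settings (symbols: quantile normalisation with an offset of 16 or 50, rank-invariant scaling, and scaling to the median of detected or of all probes), filled where the adjusted p was under 0.05. In the OCT4 panel the SPRY1 and SPRY4 symbols for the median of all probes stand near 0 (-0.20 and -0.09), apart from the other 4, while the directions of FGFR3 and FGFRL1 are the same under all 5 in every panel.

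Over the 7 genes, 7 of 7 were called in each comparison with mock, where 56.6% of the 12374 probes tested were called in the OCT4 knock-down, 30.6% in the NANOG knock-down and 55.2% in the SOX2 knock-down. In each case 6 were lower, beside 29.8%, 15.2% and 29.2% of all probes, and 1 was higher, beside 26.7%, 15.3% and 25.9%, but the gene that rose was FGFRL1 with OCT4 and SOX2 esiRNA and FGFR3 with NANOG esiRNA. Groups did not overlap for 7, 6 and 7 of the genes, where 63.6%, 44.1% and 59.8% of all probes did not. At an adjusted p under 0.01 and at least 1.5-fold, 3 of 7 were called in the NANOG knock-down, at a background of 8.63%. The median difference of the 7 was -1.08 with OCT4 esiRNA, -0.54 with NANOG esiRNA and -1.22 with SOX2 esiRNA, beside medians over all tested probes of -0.03, 0.01 and -0.04. The 3 comparisons share the mock arrays. The 7 genes were chosen with earlier results of these data known, so these counts are not independent evidence of a change. Between knock-downs, 5 of 7 genes differed between OCT4 and NANOG and 5 of 7 between SOX2 and NANOG, all but the Sprouty genes, at backgrounds of 51.9% and 51.3%. In both, 4 were lower (28% and 27.8% of all probes) and 1 was higher than in the NANOG knock-down (24% and 23.5%), and the same 5 did not overlap (60.5% and 57.6%). The FGF2 call between OCT4 and NANOG (measured means 4.87 and 5.40, adjusted p = 0.0204) became 0.0625 with all probes tested, and 4 of the 12 omissions of an array also lost it: OCT4 replicate 2 or 3 and NANOG replicate 1 or 3, with adjusted p-values between 0.0605 and 0.086. With rank-invariant scaling it was -0.19 (adjusted p = 0.323), and the SOX2 difference from NANOG, -0.82 in the main test, was -0.19 too (adjusted p = 0.321).

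No difference between the OCT4 and SOX2 knock-downs passed the test for these genes at this number of arrays. By limma 0 of 7 genes and 0 of 12374 probes (0%) were called between them, while 1210 probes (9.78%) had an unadjusted p under 0.05, and the methods' t-test with adjustment called 1 probe. Groups did not overlap for 3 of the 7 genes and for 16.7% of all probes. Among the 7 genes the largest difference was that of FGF19, and FGFR4 was 0.19 higher in the OCT4 knock-down (95% interval 0.02 to 0.36, adjusted p = 0.46). For SPRY1 the difference was 0.00 with an interval from -0.30 to 0.30.

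Other genes of the pathway could be named only where the study's lists of changed genes pair a probe with a symbol, and those lists were chosen on these samples, so the counts that follow are not independent evidence of a direction. Of 20 other FGF ligands only FGF18 was paired. FGF18 was at least 1.49-fold higher in the OCT4 knock-down (means 6.02 and 4.51, adjusted p = 5.85e-08) and at least 1.52-fold higher in the SOX2 knock-down (means 6.05 and 4.51, adjusted p = 4.64e-08), the mock signal not being above background. The probe entered the test only through those 2 knock-downs, and with all probes tested the adjusted p-values were 1.39e-07 and 1.08e-07. It was detected on 0 of 3 arrays in both mock and the NANOG knock-down. FGF13, FGFR1, SPRY2 and all 18 adaptors and cascade kinases listed were not analysed here.

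Among 14 receptors and co-receptors 8 were paired, all of them heparan sulphate proteoglycans, the syndecans and glypicans that hold FGFs at the cell surface. In the OCT4 and in the SOX2 knock-down 7 of 8 rose and 1 fell, and in the NANOG knock-down 4 rose and 2 fell. Of all tested probes 26.7%, 15.3% and 25.9% were called higher with OCT4, NANOG and SOX2 esiRNA, and 29.8%, 15.2% and 29.2% lower. GPC3, a glypican, rose by 2.58 with OCT4 esiRNA (adjusted p = 2.64e-08), by 1.01 with NANOG esiRNA (adjusted p = 3.78e-04) and by 2.27 with SOX2 esiRNA (adjusted p = 8.52e-08). SDC2, a syndecan, rose by 2.23, 1.59 and 1.76 (adjusted p = 3.53e-08, 4.44e-06 and 3.23e-07). The one that fell in the OCT4 and SOX2 knock-downs was GPC2, another glypican, with differences of -0.88 and -0.72. In the OCT4 knock-down its call was lost with scaling to the median of all probes (-0.20, adjusted p = 0.118). The 2 that fell in the NANOG knock-down were GPC2 (-0.21, adjusted p = 0.0426) and the syndecan SDC4 (-0.38, adjusted p = 0.00453), both named after their values were seen. GPC2 lost that call with all probes tested (adjusted p = 0.112), at an offset of 50, under every other scaling and on leaving out any 1 of 8 arrays (mock 1 or 2, OCT4 3, NANOG 1, 2 or 3, SOX2 1 or 2; adjusted p = 0.0545 to 0.141), and SDC4 lost it with scaling to the median of all probes (-0.14, adjusted p = 0.334).

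The feedback genes and transcriptional targets of FGF signalling did not follow the receptors gene by gene. Of 11 other feedback genes 3 were paired, and in every knock-down 1 rose and 2 fell, beside the shares of all probes given for the co-receptors. IL17RD, a membrane antagonist of FGF receptors, averaged 7.64 ± 0.04 in mock, 6.39 ± 0.03 in the OCT4 knock-down, 5.58 ± 0.20 in the NANOG knock-down and 6.38 ± 0.19 in the SOX2 knock-down (SD, n = 3 each). It fell by 1.26 with OCT4 esiRNA (adjusted p = 8.30e-07), by 2.06 with NANOG esiRNA (adjusted p = 7.69e-08) and by 1.26 with SOX2 esiRNA (adjusted p = 7.60e-07). IL17RD was detected on 2 of 3 NANOG arrays and on all arrays of the other groups. FLRT3, a membrane protein that binds FGF receptors, rose by 1.04, 1.47 and 0.82 (adjusted p = 1.21e-05, 3.02e-06 and 8.85e-05). DUSP6, a phosphatase of ERK named here after its values were seen, fell most with NANOG esiRNA, by 2.25 (adjusted p = 1.63e-07), compared with 0.69 and 0.91 in the OCT4 and SOX2 knock-downs. It was 1.56 higher in the OCT4 than in the NANOG knock-down (95% interval 1.28 to 1.83, adjusted p = 7.60e-07) and 1.34 higher in the SOX2 than in the NANOG knock-down (adjusted p = 2.81e-06). DUSP6 too was detected on only 2 of 3 NANOG arrays, so the NANOG signals of IL17RD and DUSP6 were close to background.

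Of 7 listed transcriptional targets 6 were paired. In the OCT4 knock-down 4 fell and 1 rose, in the NANOG knock-down 5 fell and 1 rose, and in the SOX2 knock-down 4 fell and 2 rose. Of all tested probes 29.8%, 15.2% and 29.2% were called lower in these knock-downs, and 26.7%, 15.3% and 25.9% higher. ETV4, an ETS factor induced by FGF signalling, fell by 3.47 with OCT4 esiRNA (11.1-fold, adjusted p = 3.64e-10) and differed from mock by -3.48 with SOX2 esiRNA (adjusted p = 3.53e-10) and by -0.52 with NANOG esiRNA (adjusted p = 0.00935). CCND1, which encodes cyclin D1, rose by 1.26, 0.71 and 1.40 with OCT4, NANOG and SOX2 esiRNA (adjusted p = 4.81e-07, 2.72e-04 and 1.72e-07). ETV1, ETV5, FOS and EGR1 were also named after their values were seen, and the last 3 were lowest in the NANOG knock-down. ETV1, an ETS factor too, was not: it differed from mock by -0.80, -0.40 and -0.89 with OCT4, NANOG and SOX2 esiRNA (adjusted p = 2.58e-05, 0.00934 and 1.00e-05), the SOX2 signals not being above background. ETV5, another ETS factor, fell by 1.25 with NANOG esiRNA (adjusted p = 8.06e-08), differed from mock by -0.46 and -0.47 with OCT4 and SOX2 esiRNA (adjusted p = 8.28e-05 and 5.99e-05), and was 0.80 higher in the OCT4 than in the NANOG knock-down (adjusted p = 7.62e-07). FOS, an immediate early gene, fell by 1.46 with NANOG esiRNA (adjusted p = 6.20e-07), differed from mock by -0.90 and -0.76 with OCT4 and SOX2 esiRNA (adjusted p = 8.30e-06 and 3.53e-05), and was 0.56 higher with OCT4 than with NANOG esiRNA (adjusted p = 4.76e-04). EGR1, also an immediate early gene, fell by 0.83 with NANOG esiRNA (adjusted p = 2.78e-05), rose by 0.31 with SOX2 esiRNA (adjusted p = 0.0101) and had a difference of -0.15 with OCT4 esiRNA (adjusted p = 0.156). With the arrays scaled to the median of all probes the OCT4 differences of DUSP6, ETV5 and EGR1 turned positive, to 0.04, 0.12 and 0.50, and those of FOS with OCT4 esiRNA and ETV5 with SOX2 esiRNA were no longer called (-0.17, adjusted p = 0.237, and -0.30, adjusted p = 0.0533).

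**Figure D4:**
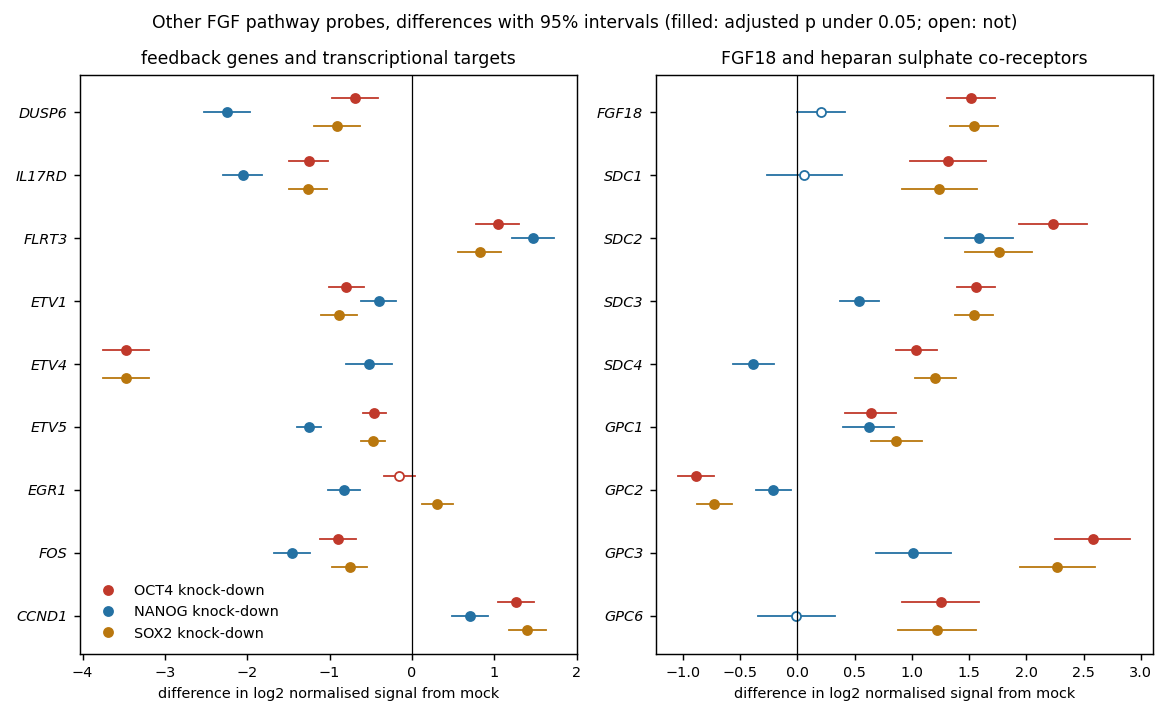
Differences from mock in log2 normalised signal with 95% intervals for other paired FGF pathway probes, with feedback genes and targets on the left and FGF18 with the proteoglycan co-receptors on the right, filled where the adjusted p was under 0.05. DUSP6, IL17RD, ETV5, EGR1 and FOS lie lowest in the NANOG knock-down, while ETV4 falls by over 3 in the other knock-downs only.

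Markers of cell state moved with these genes. The arrays read whole cultures, so fewer cells of a type and less RNA per cell cannot be told apart. Markers of undifferentiated embryonal carcinoma (9 of 10 genes, 10 probes, again from the study's lists) were detected on all mock arrays. Their summed signal was 27290 to 28540 in mock, 5459 to 6347 in the OCT4 knock-down, 18850 to 20010 in the NANOG knock-down and 5241 to 5760 in the SOX2 knock-down. All 10 probes fell in the OCT4 and SOX2 knock-downs (29.8% and 29.2% of all tested probes did) and 8 fell in the NANOG knock-down (15.2%). Mesoderm and smooth muscle markers (8 of 8 genes) summed to 792 to 840 in mock, where ACTC1, COL1A1, RUNX1 and MSX1 were not detected; in the NANOG knock-down ACTC1, COL1A1, COL2A1 and RUNX1 were not. They summed to 9058 to 9809 in the OCT4 knock-down, 2189 to 2661 in the NANOG knock-down and 8528 to 9308 in the SOX2 knock-down, with 8, 2 and 8 of them called higher. Of all tested probes 26.7%, 15.3% and 25.9% were called higher. The part of this change of cell state in the FGF and Sprouty differences was not tested. Markers of trophoblast, endoderm and neural ectoderm, proliferation genes and housekeeping genes were not analysed here.

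The named probes whose 3 differences from mock were most like those of a given gene were sought among 2978 candidates by the root-mean-square difference. For FGFR3 these were PDE9A, RGS2 and ADM (0.06 to 0.10), PDE9A reading -1.30, 0.34 and -1.20 with OCT4, NANOG and SOX2 esiRNA. For FGFRL1 they were RGS16, SVIL and CASQ1 (0.05 to 0.16), RGS16 reading 1.36, -0.72 and 1.44. FGF19 had less close neighbours, CEND1, CRIPTO and RHD (0.20 to 0.32). The nearest for FGF2 were LOC375301, RESF1 and H3C12, for FGFR4 H2AC6, LRRN1 and SLC35G1, for SPRY1 SLC17A9, STK33 and WWP2, and for SPRY4 CD74, SLCO3A1 and GRAMD1A, all within 0.08. These distances were taken over 3 comparisons that share the mock arrays and carry no test.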

How the data were processed

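Total RNA of NCCIT cells (4 groups, 12 arrays, 300 ng input each) was amplified, labelled and hybridised to Illumina human BeadChips. The per-array files deposited by the authors hold a mean bead intensity per probe, neither background-subtracted nor normalised, and a detection value, which is a fraction between 0 and 1. A further deposited table holds the authors' mean intensity per group after background subtraction and rank-invariant normalisation in BeadStudio 1.0, in which a probe without a value is empty. It was used only for comparison, and its scale, centring and direction followed from a median ratio of 0.983 to 1.02 to rank-invariant values computed here from the array files; its column medians were 167.4, 146.3, 152.4 and 166.8 (mock, OCT4, NANOG, SOX2). The files name no array slide, and the array values carry no genome coordinates.

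After 4 bacterial control rows were left out, intensities of 47289 probes were corrected by normexp with the mean and SD of the negative controls inferred from the detection values, with an offset of 16, quantile-normalised and log2-transformed (limma 3.58.1, R 4.3.3). Probes detected (value of 0.99 or more) on all 3 arrays of at least 1 group were tested, 12374 in all. Tests were made in 1 fit of the 4 groups (lmFit, eBayes), called at an adjusted p under 0.05, two-sided, with 95% intervals. An "at least" fold sets the group that is above background on any array against the higher of the undetected probe's own signal and the lowest detected signal of each array. It is an estimate at the offset of 16, not a confidence limit, and other offsets can give a smaller fold. The number of arrays limits the precision. FGF2 and FGF18, which passed this filter only through the groups where they were high, are also given with all probes tested. Other probes, among them FGF19, FGFRL1, SDC1 and GPC6, also passed it without the groups where they were low. With all probes tested, the adjusted p-values against mock (OCT4, SOX2) were 7.71e-09 and 9.54e-10 for FGF19. They were 3.72e-05 and 6.2e-05 for SDC1, and 7.31e-05 and 9.19e-05 for GPC6. For FGFRL1 in the NANOG knock-down it was 8.87e-04. The scripts were tested on simulated data. In that simulation, dim probes that passed this filter through 1 group by noise gave extra false calls.

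The files name probes by identifier only. Symbols of the 7 genes come from the probe list that defines them, and those of 2985 other probes from the study's supplementary lists of changed genes, of which 2481 had an accession in the RefSeq table; other probes of the 7 genes could not be looked for. The 7 genes, the gene lists and the naming rules (the 7 genes, FGF13, FGFR1 and SPRY2 where measured, the 2 called genes of each list with the largest OCT4 difference, and the 3 most alike probes) were chosen with earlier results of these data known. Alternatives comprised another offset (50), 3 other scalings, other filters, a stricter threshold, fits of 2 groups, the methods' t-test, a replicate block, omission of each array and the authors' means. Motifs were searched in RefSeq promoter windows (GRCh38.p14).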

Additional observations from a re-analysis of the deposited data

Results flagged for a closer look

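FGFR3 and FGFRL1 were changed in opposite directions in the NANOG knock-down and in the other knock-downs, and the difference between the knock-downs was itself tested in the same fit. For FGFR3, which fell in the OCT4 and SOX2 knock-downs and rose in the NANOG knock-down, the OCT4 arrays differed from the NANOG arrays by -1.69 (adjusted p = 1.25e-09) and the SOX2 arrays by -1.65 (adjusted p = 1.37e-09). For FGFRL1, which rose in the OCT4 and SOX2 knock-downs and was below detection in the NANOG knock-down, the measured differences were 2.04 (adjusted p = 1.23e-08) and 2.23 (adjusted p = 5.17e-09). Summed mesoderm markers were 9058 to 9809 in the OCT4 and 2189 to 2661 in the NANOG knock-down. In the latter only 2 of 8 probes were called higher (15.3% of all tested probes were), with a median difference from mock of 0.26. The part of these markers in either result was not tested.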

How the results depend on the processing

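Of 965 recomputed log2 differences of the 7 genes, 921 kept their side of the threshold and, where called, their direction. Where no test was possible, they moved by less than the replicate spread. A change of sign counted as kept where neither fit was called, as for SPRY1 between OCT4 and NANOG (-0.19, and 0.28 with median scaling over all probes). The filter to probes detected on all 12 arrays tested only 4 of the 7 genes, so that 4 were called in each comparison with mock and 2 in each of OCT4 and SOX2 against NANOG. In the NANOG knock-down against mock, 4 of 7 were called with scaling to the median of all probes, beside 34.3% of all probes (FGF2, FGF19 and FGFR4 lost at -0.36, -0.31 and -0.12). There 3 were called both at an adjusted p under 0.01 with 1.5-fold (8.63% of all probes) and by the methods' t-test at an unadjusted p under 0.01 with 1.5-fold (6.74%). The same median scaling called 5 of 7 genes between OCT4 and SOX2, beside 72.4% of all probes, and reversed SPRY4 between OCT4 and NANOG (0.43) and FGFR3, SPRY1 and SPRY4 between OCT4 and SOX2 (0.37, 0.34 and 0.28). Among the pathway genes it reversed DUSP6 (0.036), EGR1 (0.50) and ETV5 (0.12) in OCT4 against mock, GPC2 in NANOG against mock (0.033), FLRT3 in OCT4 against NANOG (0.047), and FGF18 (0.28) and CCND1 (0.25) in OCT4 against SOX2. The cause was not tested beyond the shift of the median given above. Omitting each array in turn left 7 called genes in OCT4 and SOX2 against mock, 6 or 7 in NANOG against mock, 4 or 5 in OCT4 against NANOG, 5 in SOX2 against NANOG and 0 in OCT4 against SOX2. Of all calls between OCT4 and NANOG, 90% were upward with median scaling over all probes against 46.1% by the main test, and of those between SOX2 and mock 57.6% with rank-invariant scaling against 47%. Rank-invariant scaling made SPRY4 differ between SOX2 and NANOG (0.19, adjusted p = 0.0348).

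Over all probes, the calls against mock with OCT4, NANOG and SOX2 esiRNA were 6998, 3785 and 6825 by the main test, 3005, 1068 and 2919 at the stricter threshold, and 2705, 834 and 2565 by the methods' t-test at its threshold (1764 for NANOG with adjustment). For OCT4 and SOX2 against NANOG the main counts of 6426 and 6354 became 2593 and 2587, and 2330 and 2254. Between OCT4 and SOX2 the count of 0 became 88 with offset 50, 8963 with median scaling over all probes, 74 over detected probes, 47 with the filter to 12 arrays, 20 by the methods' t-test, 8 with rank-invariant scaling, 2 in a fit of the 2 groups and at most 4 with an array left out. The authors' group means moved 7 of the differences by more than the replicate spread, without a change of direction (FGF19 -3.15, FGFR3 -1.34, FGFRL1 1.75 and SPRY4 -0.74 in OCT4; SPRY4 -0.79 in NANOG; FGFRL1 2.02 and SPRY4 -0.57 in SOX2), and gave no value for FGF2 in OCT4 and SOX2, FGF19 in SOX2 or FGFRL1 in NANOG.

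The array files number the replicates but the labels do not. Same-numbered arrays of different groups correlated in their deviations from the group means at -0.304 to 0.309, over 0.1 in 4 of 18 pairs, and 3 of 12 arrays correlated best with an array of their own number. Those correlations were taken after quantile normalisation and cannot show a difference between arrays that scaling removes. Before scaling, replicate 1 had the highest negative-control mean in every group (100.1 in mock, 118.8 in OCT4, 104.1 in NANOG and 110 in SOX2). Replicate 3 had the lowest mean signal in every group (262.9, 361.6, 284.7 and 289.3). Whether same-numbered arrays were processed together is not given in the labels. With the replicate block 7, 7 and 7 genes were called against mock, 5 and 5 against NANOG and 0 between OCT4 and SOX2, as without it. Of all probes the block called 54.8%, 27.8% and 52.9% against mock (OCT4, NANOG, SOX2). It called 50.1% and 49.5% against NANOG, and 0% between OCT4 and SOX2. Of the pathway genes only GPC2 in NANOG against mock lost its call (adjusted p = 0.0575). The slide as a block was not run because the files name no slides.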
